A study of Mus musculus with 30 samples.

Results

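The transcripts of 10 genes that mark resting, or homeostatic, microglia were followed through mouse medial prefrontal cortex cells that had been sorted as interneurons. The 10 genes were found by their symbols in the first column of a table of 23993 genes, and all 10 were present: Cx3cr1, P2ry12, P2ry13, Tmem119, Csf1r, Siglech, Gpr34, Fcrls, Selplg and Olfml3. Values were FPKM, the fragments that map to a gene scaled to its length and to all mapped fragments, so levels of different genes could be compared per length. The study asked how Sst and Pvalb interneurons differ by sex, by subtype and after chronic stress.

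The mice were young adult C57BL/6 animals of both sexes, heterozygous for an Ai9 tdTomato reporter switched on by Sst-Cre or by Pvalb-Cre, and the red cells were collected by fluorescence-activated sorting (FACS). The reporter marks every cell in which that Cre was ever active, so a sorted fraction is defined by the history of Cre and not by the transcript present at the sort. The table held 24 libraries. There were 7 from unstressed female Sst mice, 7 from unstressed male Sst mice, 3 from male Sst mice after 14 days of chronic unpredictable stress (CUS, a rotating schedule of mild stressors) and 7 from unstressed Pvalb mice labelled male. Another 6 samples named in the labels, all female and 5 of them stressed, were not analysed here.

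Several libraries stood apart before any result. Among male Sst controls, SST1-M repeated the values of SST0-M with a spread under 10% of that between any other pair, and PV2-M did so for PV0-M among the Pvalb libraries, so each pair was averaged and counted as 1 sample, which left 22 samples. The titles were of 2 kinds, numbered (SST3-M) and date-like (SS04031R). All CUS libraries and 3 of the male controls had date-like titles and no female library did. Small nucleolar RNAs took 53.5 to 75.7% of the summed FPKM in the date-like libraries and 1.87 to 8.29% in the numbered ones. In PV1-M, PV4-M and PV5-M, labelled male, Xist reached 300.2 to 333.1 FPKM, against the label, while it was at or below 6.64 FPKM in the other Pvalb samples. The labels do not say which samples came from separate mice, so p-values measure the spread between these samples only, and read depth is unknown because the table holds no counts.

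Microglia are the resident macrophages of the brain. In the healthy cortex they survey their surroundings with motile processes and carry a set of surface receptors that other brain cells and most other macrophages lack or hold at low levels. This resting signature is kept up by survival signals through the receptor encoded by Csf1r, by transforming growth factor beta and by neuronal fractalkine, and parts of it are lost when microglia become reactive. Among the members, P2ry12, P2ry13 and Gpr34 encode G protein-coupled receptors (P2ry12 and P2ry13 sense ADP), Cx3cr1 the fractalkine receptor, Siglech and Fcrls surface proteins of the sialic acid-binding and Fc receptor-like families, Selplg the ligand of P-selectin, Tmem119 a membrane protein of microglia, and Olfml3 a secreted protein.

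All 10 transcripts were abundant in every library. The lowest value of any member was 59.2 FPKM (Gpr34 in SST3-F) and the highest 1253.3 FPKM (Cx3cr1 in SS04031R). Ranked among the 23993 genes of their own library, members took places from 23 (Csf1r) to 710 (Gpr34), which puts each of them in the top 2.96% of every library. The labelled cell type was far lower. Gad1, the main enzyme of GABA synthesis, lay between 0 and 2.05 FPKM over the 22 samples, its paralog Gad2 between 0.14 and 4.33 FPKM and Pvalb between 0 and 5.07 FPKM. Sst lay between 0 and 49.3 FPKM, with 12.5 to 30.5 FPKM in the Pvalb samples and 0 to 6.02 FPKM in the male Sst samples. The defining transcripts of the labelled cells were thus near 0 in many libraries, although the gate was set on tdTomato. Other microglial genes were high as well: Itgam, an integrin of the complement receptor, lay between 122.6 and 391.7 FPKM, the pan-leukocyte gene Ptprc between 16.6 and 65.3 FPKM and Spi1, which encodes the myeloid transcription factor PU.1, between 23.4 and 121.2 FPKM.

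**Figure D1:**
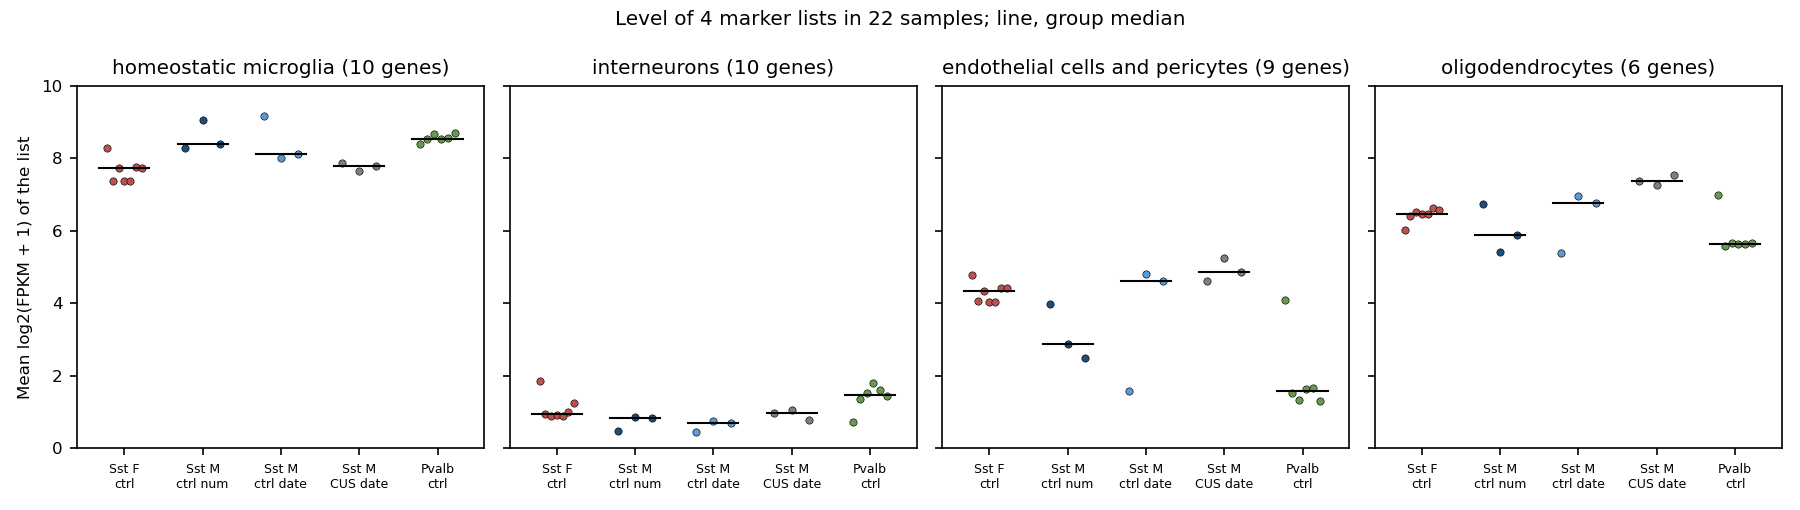
Mean log2(FPKM + 1) of 4 marker lists (y axis) in each of 22 samples (points), by group (x axis; F, female; M, male; ctrl, control; num and date, kind of title), with the group median as a line. The homeostatic microglia list lies between 7.39 and 9.17 in all samples and the interneuron list between 0.44 and 1.87, while the endothelial and oligodendrocyte lists spread widely between and within groups.

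Other blood and border cells were scarce by their markers. The summed FPKM of 8 border macrophage markers (Mrc1, Lyve1 and others) lay between 4.05 and 108.0, that of 6 monocyte and neutrophil markers between 0.388 and 18.5 and that of 6 lymphocyte markers between 0 and 3.12, against 1834.0 to 6388.2 for the sum of the 10 members.

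The order of the members was read from their mean FPKM over the 22 samples. Csf1r stood first (623.7 ± 223.6 FPKM, SD, n = 22), followed by P2ry12 (495.1 ± 223.8) and Cx3cr1 (471.1 ± 228.1). Selplg, Fcrls, Olfml3 and Tmem119 followed between 303.2 and 275.0 FPKM, then P2ry13 (227.3 ± 101.4) and Siglech (224.9 ± 92.7), and Gpr34 stood last (160.7 ± 75.5). Neighbours in this order parted to different degrees. Siglech exceeded Gpr34 in 21 of 22 samples, Cx3cr1 exceeded Selplg in 20, Csf1r exceeded P2ry12 in 19 and Tmem119 exceeded P2ry13 in 17. P2ry12 exceeded Cx3cr1 in 15 of 22 samples, P2ry13 exceeded Siglech in 15, Fcrls exceeded Olfml3 in 14, and Selplg over Fcrls and Olfml3 over Tmem119 were split at 11 each. The means pool 16 numbered and 6 date-like samples whose orders differed: Cx3cr1 was the highest member and P2ry13 the lowest in 6 of 6 date-like samples and in 0 of 16 numbered ones. Cx3cr1 had the widest range, its highest sample 6.7 times its lowest, and Csf1r the narrowest, 3.39 times.

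Some members are neighbours or lie within other genes, by the RefSeq annotation of GRCm38.p6. P2ry13 (chr3:59207892-59210882) and P2ry12 (chr3:59216271-59262985) are neighbours with 5388 bases between them, and both lie inside the span of Med12l, a Mediator subunit gene. Gpr34 (chrX:13622650-13640859) lies inside the span of Cask, which encodes a synaptic scaffold protein. Tmem119 (chr5:113793729-113800396) and Selplg (chr5:113817798-113832528) stand 17401 bases apart. Cx3cr1 (chr9:120048683-120068296) and Siglech (chr7:55768154-55779448) overlap in part the predicted genes Gm33858 and Gm39015, and Fcrls (chr3:87250736-87263765) and Olfml3 (chr3:103735394-103738001) overlap no other annotated gene. Whether fragments were counted by strand is not given in the sources used here, so reads from overlapping genes could not be told apart. The host genes were much lower: Med12l lay between 7.92 and 17.7 FPKM and Cask between 7.22 and 20.8 FPKM in all samples.

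The RefSeq promoter table of that build held 6 of the 10 members. It was searched for GAGGAA, the core of the site that PU.1 binds, on both strands (TTCCTC on the other) in windows from 250 bases before to 50 bases after the start of transcription. Of the 6 members, P2ry13, Siglech and Fcrls had 1 match each and Cx3cr1, P2ry12 and Olfml3 none, while 28.3% of all 32851 windows held a match. A match is a description of letters and not a site. The 100 bases before the start are shown for the neighbours P2ry12 and P2ry13, which had the closest pair of profiles, and for Cx3cr1, whose ratio to them separated the kinds of title (both described further on). Each is written 5′ to 3′ on the gene's own strand, the minus strand in all 3, and capitals mark the match.
P2ry12, chr3:59262986-59263085: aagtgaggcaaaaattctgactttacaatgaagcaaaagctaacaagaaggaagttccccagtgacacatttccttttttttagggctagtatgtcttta
P2ry13, chr3:59210883-59210982: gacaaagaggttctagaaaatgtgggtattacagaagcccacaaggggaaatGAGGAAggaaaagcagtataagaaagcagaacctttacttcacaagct
Cx3cr1, chr9:120068297-120068396: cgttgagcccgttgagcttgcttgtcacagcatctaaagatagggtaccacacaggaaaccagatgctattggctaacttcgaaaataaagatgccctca

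**Figure D2:**
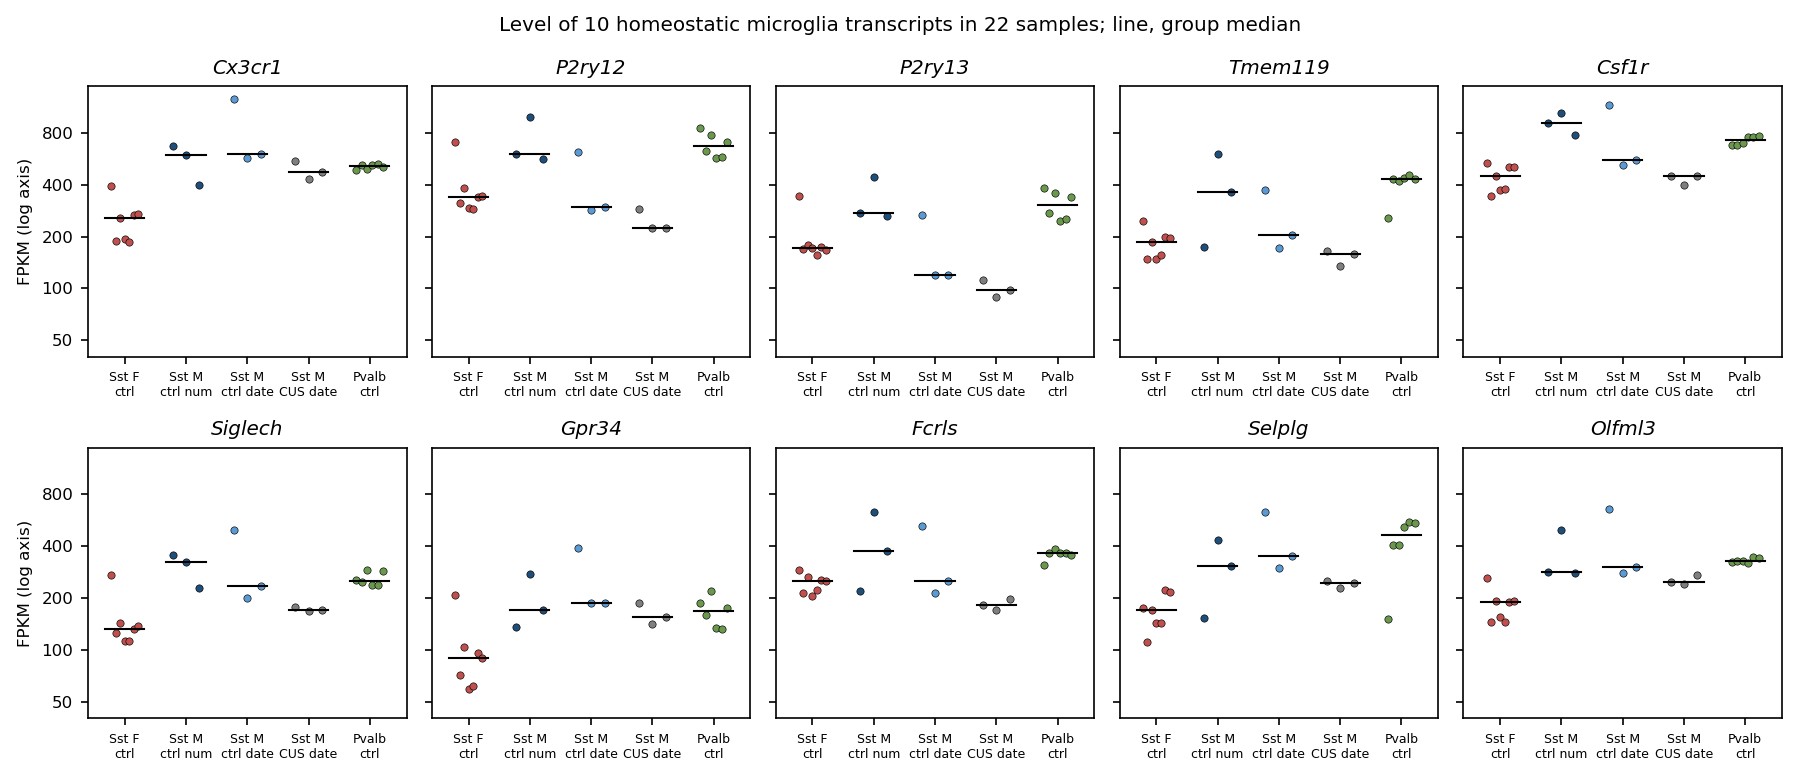
FPKM of each member (y axis, log scale) in each of 22 samples (points), by group (x axis; F, female; M, male; ctrl, control; num and date, kind of title), with the group median as a line. Female Sst samples lie low for most members, with SST-F the highest of the 7 for 9 of the 10 members, and among the date-like male controls SS04031R lies above the other 2 for every member.

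The first comparison asked whether the transcripts differ between unstressed female and male Sst mice. To stay within 1 kind of title, 7 female samples were set against the 3 numbered male samples. Cx3cr1 and Csf1r were lower in females and passed the test, and the other 8 members had differences of the same sign that did not pass it. Cx3cr1 lay at 187.0 FPKM (lowest), 257.6 (median) and 391.6 (highest) in the females and at 396.8, 597.8 and 676.0 FPKM in the numbered males. The groups did not overlap, although SST-F came close to SST4-M. The log2 difference was -1.16 ± 0.26 (SE; adjusted p = 0.0416, limma with Benjamini-Hochberg adjustment over 14443 genes). Csf1r, the receptor for the survival factors Csf1 and Il34, lay at 345.6, 449.9 and 533.4 FPKM in the females and at 773.9, 913.0 and 1051.4 FPKM in the males. Every female lay below every male, with a log2 difference of -1.05 ± 0.20 (adjusted p = 0.0214).

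Olfml3 was the only other member whose groups did not overlap. Its female samples ran from 145.0 through a median of 190.3 to 260.5 FPKM and the males stood at 279.9, 282.4 and 496.2 FPKM, for a log2 difference of -0.91 ± 0.24 (adjusted p = 0.0568). P2ry12 gave -0.93 ± 0.29 (adjusted p = 0.0878), and SST-F at 710.8 FPKM exceeded 2 of the 3 males. Over the 10 members the median log2 difference was -0.92 (range -1.16 to -0.63), beside a median of 0.05 over all genes tested. Of the members, 2 were called lower and 3 did not overlap, and all 10 had an unadjusted p under 0.05. Over all genes, 1.66% were called lower and 4.48% did not overlap in that direction. Of the 14443 genes, 1638 were lower at an unadjusted p under 0.05.

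The count of called members rested on single samples. It was 7 without SST-F, which was the highest female sample for 9 of the 10 members, 5 without the averaged SST0-M and SST1-M and 4 without SST4-M, where 5.86, 2.63 and 3.75% of all genes were called lower. It was 1 without SST1-F or SST6-F and 0 without any one of SST2-F, SST3-F, SST4-F, SST5-F or SST3-M, where 0.27 to 0.437% of all genes were. The count over all genes thus moved with the same samples. The sign of all 10 differences held in each of these fits. With all 6 male controls, 6 members were called lower (Cx3cr1, Csf1r, Siglech, Gpr34, Selplg and Olfml3) where 5.44% of all genes were. Against the 3 date-like males alone, 5 members were called lower where 19.1% of all genes were, and P2ry12 and P2ry13 stood at -0.04 ± 0.31 and 0.26 ± 0.30 on the log2 scale, adjusted p = 0.925 and 0.506.

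Genes of related lists shifted as well, and the cells they came from were not told apart. At an unadjusted p under 0.05 by limma, 11 of 12 other microglia markers were lower in females and 1 higher (list median -0.79). Lower too were 6 of 9 microglial transcription factor genes (-0.65) and 5 of 9 transforming growth factor beta genes (-0.61), with 0 higher. Of 10 purine receptor and enzyme genes 2 were lower and 3 higher. Over all genes, 1638 of 14443 were lower at that threshold. With all 6 male controls, 6 of the 12 other microglia markers were lower and 1 higher (list median -0.54), beside 1966 of 14498 genes lower. Against the date-like males alone, 3 were lower and 1 higher (-0.25), beside 3304 of 14532 genes lower. The transcription factor genes stood at 8 and 6 of 9 lower in those fits. Against the numbered males fewer genes passed after adjustment. Of 12 other microglia markers tested, 3 were called lower in females, namely Slc2a5 (log2 difference -1.40 ± 0.33, adjusted p = 0.0437), Sparc (-1.18 ± 0.25, adjusted p = 0.0333) and Itgam (-0.97 ± 0.22, adjusted p = 0.0428). Tyrobp, which encodes the adaptor DAP12 that carries the signals of microglial receptors, was lower (428.1 to 507.7 against 775.5 to 1517.0 FPKM, log2 difference -1.35 ± 0.22, adjusted p = 0.0138). That held against the numbered males only, since Tyrobp lay at 60.6 to 156.3 FPKM in the date-like male controls, below every female. Cx3cl1, the fractalkine that Cx3cr1 binds, was higher at a low level (mean 4.09 against 1.44 FPKM, log2 difference 1.08 ± 0.24, adjusted p = 0.0416). Of 9 microglial transcription factor genes 1 was lower (Runx1, -0.96 ± 0.18, adjusted p = 0.0218), of 9 genes of the transforming growth factor beta pathway 1 (Tgfb1, -0.94 ± 0.23, adjusted p = 0.0468), of 10 purine receptor and enzyme genes 1 (Entpd1, which breaks down extracellular ATP, -1.20 ± 0.21, adjusted p = 0.0191), and of 10 genes of disease-associated microglia none passed by limma, with 2 at an unadjusted p under 0.05.

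Vascular markers differed in part between the females and the numbered males. Of 9 endothelial and pericyte markers 3 were called higher in females, where 1.75% of all genes were: Vtn (2.45 ± 0.32, adjusted p = 0.00404), Cldn5 (1.92 ± 0.20, adjusted p = 6.80e-04) and Pdgfrb (1.48 ± 0.18, adjusted p = 0.00267). The summed FPKM of the 9 lay at 213.5 to 463.2 in the females and at 55.4 to 227.2 in the numbered males, with no marker at 0 in a whole group. In the date-like males it had a median of 286.4 and ran from 25.1 to 362.7. With all 6 male controls 0 of 9 were called (median log2 difference 0.97), and 0 of 9 against the 3 date-like males alone (0.63). The part of the vascular markers in the difference of the members was not tested. In sorted bulk samples a smaller share of microglia and less of each RNA per microglial cell cannot be told apart, here and in every comparison that follows.

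The second comparison asked whether the sorted line mattered in unstressed mice, with 13 Sst samples of both sexes against 6 Pvalb samples. No member passed the test by limma. All 10 differences had the same sign (lower in Sst, median log2 difference -0.42, range -0.84 to -0.31, beside 0.00 over all genes), 4 had an unadjusted p under 0.05 (P2ry12, P2ry13, Tmem119 and Selplg), and 4.5% of all 14524 genes were called lower. Tmem119 came closest. It lay at 255.0, 430.3 and 453.7 FPKM (lowest, median, highest) in the Pvalb samples, at 147.4, 186.4 and 245.2 FPKM in the female Sst samples and at 170.6, 282.1 and 607.0 FPKM in the 6 male Sst samples. The lines overlapped through the male Sst samples, and the log2 difference was -0.84 ± 0.26 (adjusted p = 0.0515). Without PV0-M and PV2-M, the lowest Pvalb sample for Tmem119 and Selplg, 2 members were called, and 2 without SST3-M, where 7.89 and 5.14% of all genes were called lower. There was 1 without SS04031R, the averaged SST0-M and SST1-M, or SST4-M, with 5.26, 7.08 and 4.49% of all genes.

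The sexes of the Sst mice were also set one by one against the same Pvalb samples, which the fits therefore share, and the difference between the fits was not tested. For the 7 female Sst samples alone all 10 members were lower than in the Pvalb samples and passed the test (median log2 difference -0.87, range -1.26 to -0.56), where 12.2% of all genes were called lower. The members were not alone in this. In the same fit 10 of 12 other microglia markers (median -0.70) and 5 of 9 microglial transcription factor genes (-0.47) were called lower and 0 higher. The groups did not overlap for 5 members (Cx3cr1, Tmem119, Csf1r, Fcrls and Olfml3), as for 3.19% of all genes. Selplg had the lowest value, -1.26 ± 0.27 (adjusted p = 0.00431), and Cx3cr1 was at -1.07 ± 0.16 (adjusted p = 5.41e-04). The Pvalb samples were tight for Cx3cr1, 490.1 to 531.4 FPKM. For the 6 male Sst samples alone no member passed in either direction by limma, none had an unadjusted p under 0.05, and the differences were split 5 to 5 (median 0.01, range -0.50 to 0.35), where 2.15% of all genes were called lower. For the 3 numbered male samples alone none passed or had an unadjusted p under 0.05 (median 0.06, range -0.54 to 0.32), where 0.0772% of all genes were called lower. For Cx3cr1 the 95% interval of the difference then ran from -0.32 to 0.50, and for Selplg from -1.50 to 0.42. The Pvalb samples are labelled male but 3 carry high Xist. Without those 3 no member was called, 2 had an unadjusted p under 0.05 (P2ry12 and P2ry13), the median was -0.49, and 0.0758% of all genes were called lower. There 922 of 14519 genes were lower at an unadjusted p under 0.05.

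Lists of other cells differed in part between the lines. Of 9 endothelial and pericyte markers 5 were called higher in Sst samples, led by Flt1 (2.72 ± 0.55, adjusted p = 0.00579), where 3.3% of all genes were, and 8 of 9 in the female Sst samples, where 12.9% of all genes were. With the 6 male Sst samples alone 0 of 9 were called (median log2 difference 1.73). Without the 3 high-Xist Pvalb samples 0 of 9 were called (1.48), in a fit that called 14 genes in all. The summed FPKM of the 9 markers was 21.4 to 39.3 in 5 of the Pvalb samples, 308.3 in the averaged PV0-M and PV2-M, and 25.1 to 463.2 in the Sst controls. Of 9 interneuron markers tested 2 were called, both lower in Sst samples (list median -0.23). Sst itself thus went against the labels (mean 9.24 against 23.3 FPKM, -2.05 ± 0.63, adjusted p = 0.0488). Pvalb went with them (-1.42 ± 0.27, adjusted p = 0.00441). Among the excitatory neuron markers 3 of 6 were lower in Sst samples, with Camk2a at -2.38 ± 0.54 (adjusted p = 0.0116). In each of the fits with male Sst samples alone and without the high-Xist Pvalb samples, 0 of 6 were called. The list median hardly moved, at -0.99 and -0.90 in those fits beside -0.94 with all samples. Of the microglial lists, Itgax was lower (-1.02 ± 0.29, adjusted p = 0.0345) and so were the purine receptors Adora3 (-1.45 ± 0.28, adjusted p = 0.00521) and P2ry6 (-0.72 ± 0.21, adjusted p = 0.0365), while Il34, a ligand of Csf1r, was higher at 3.65 against 0.936 FPKM (1.27 ± 0.34, adjusted p = 0.025). The part of the other cell types in the values of the members was not tested.

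**Figure D3:**
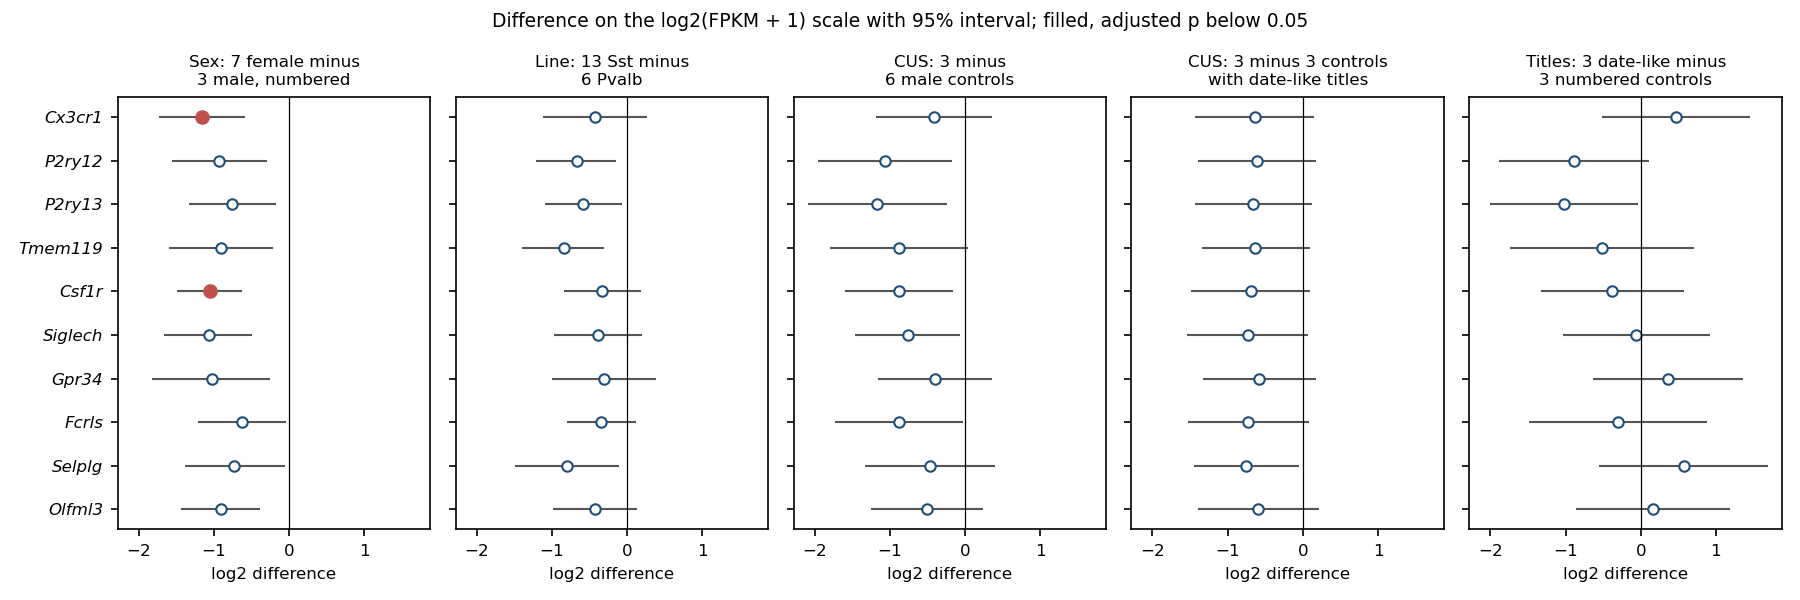
Log2 difference of each member (x axis, log2(FPKM + 1) scale; y axis, genes) with its 95% interval in 5 comparisons, filled where the adjusted p is below 0.05. In the comparison of sexes all points lie left of 0 and Cx3cr1 and Csf1r are filled; within the date-like titles the CUS differences lie close together, from -0.75 to -0.58; between kinds of title the points lie on both sides of 0.

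The third comparison asked whether CUS altered the transcripts in Sst males. The 3 CUS samples were low for most members, but no difference passed the test. P2ry13 stood at 88.5, 97.7 and 111.3 FPKM after CUS and at 119.1 (lowest), 264.7 (median) and 443.9 FPKM (highest) in the 6 male controls. The groups did not overlap, and the log2 difference was -1.17 ± 0.42 (adjusted p = 0.641). Csf1r stood at 396.3, 447.8 and 450.5 FPKM after CUS, below the controls at 520.6, 843.4 and 1170.0 FPKM, with a difference of -0.88 ± 0.33 (adjusted p = 0.641). Siglech stood at 167.7, 169.4 and 178.2 FPKM, below the controls at 199.4, 280.4 and 495.8 FPKM (-0.76 ± 0.32, adjusted p = 0.641). Cx3cr1 overlapped, at 431.3, 476.1 and 546.5 FPKM against 396.8, 599.4 and 1253.3 FPKM (-0.41 ± 0.35, adjusted p = 0.681).

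All 10 differences were below 0 (median -0.82, range -1.17 to -0.40, beside 0.02 over all genes). By limma 0 members were called and 5 had an unadjusted p under 0.05, and 0% of all 14319 genes were called lower (392 had an unadjusted p under 0.05 in that direction). The groups did not overlap for 6 members (P2ry13, Tmem119, Csf1r, Siglech, Fcrls and Olfml3), as for 3.23% of all genes. These controls mix both kinds of title while all CUS samples have date-like ones.

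Within the date-like titles, 3 CUS against 3 control samples, the members gave nearly the same difference as each other, from -0.75 (Selplg) to -0.58 (Gpr34), with a median of -0.65 beside 0.00 over all genes. None was called by limma, 1 had an unadjusted p under 0.05 (Selplg, -0.75 ± 0.30, adjusted p = 0.647), and 0% of all genes were called lower. In that direction 373 of 14186 genes had an unadjusted p under 0.05. For 8 members every CUS sample lay below every control (all but P2ry12 and Gpr34), as for 9.39% of all genes. The size of the difference rested on 1 library. SS04031R had 1.95 to 2.28 times the mean of the other 2 date-like controls, whereas SST040241L and SST04241LL lay near the CUS samples: for P2ry12 they stood at 284.2 and 298.1 FPKM against 223.6, 225.6 and 290.5 FPKM in the CUS samples. Without SS04031R the median of the 10 differences was -0.29 (range -0.43 to -0.20) and no member was called. SS04031R also stood apart in its endothelial markers, with a summed FPKM of 25.1 against 286.4 and 362.7 in the other date-like controls and 276.2 to 445.4 in the CUS samples, and in its oligodendrocyte markers, 391.3 against 1081.5 and 1284.4, and 1600.3 to 1967.2 after CUS. The part of these cells in the difference was not tested.

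Against the 3 numbered controls alone, where title and stress cannot be told apart, 3 members were called lower: P2ry13 (-1.68 ± 0.26, adjusted p = 0.0116), P2ry12 (-1.50 ± 0.28, adjusted p = 0.0183) and Csf1r (-1.07 ± 0.21, adjusted p = 0.0213). There 7.67% of all genes were called lower and 8.45% higher, and 7 members did not overlap where 21.4% of all genes did not in that direction. Of 9 endothelial and pericyte markers 4 were called higher in that contrast.

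The members did not move as a block between kinds of title. In unstressed males, 3 date-like against 3 numbered samples, the median of the 10 log2 differences was -0.18 and 4 members were above 0 and 6 below (Siglech, at -0.06, turned to 0.08 with a common median and 0.15 with quantile normalization), from -1.02 ± 0.42 (P2ry13, adjusted p = 0.198) and -0.89 ± 0.43 (P2ry12, adjusted p = 0.258) to 0.47 ± 0.43 (Cx3cr1, adjusted p = 0.528) and 0.57 ± 0.48 (Selplg, adjusted p = 0.504). None was called by limma and 1 had an unadjusted p under 0.05 (P2ry13), where 2.3% of all genes were called lower. Of 14230 genes, 1769 were lower at an unadjusted p under 0.05. No member had groups that did not overlap, against 17% of all genes lower and 16.4% higher. Tyrobp was lower in the date-like samples (mean 96.6 against 1248.3 FPKM, -3.74 ± 0.46, adjusted p = 0.0114) and Apoe, a lipid carrier raised in reactive microglia, was higher (mean 1807 against 430.4 FPKM, 2.02 ± 0.41, adjusted p = 0.0411).

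Ratios between members within a sample do not depend on how a library was scaled, and here the kinds of title did not overlap for many pairs. P2ry12 stood at 0.496, 0.496 and 0.499 times Cx3cr1 in the 3 date-like controls and at 0.474, 0.518 and 0.532 times in the 3 CUS samples. In the 16 numbered samples the ratio ran from 0.892 through a median of 1.46 to 1.82, so the ranges did not overlap. P2ry13 behaved alike, at 0.198 to 0.213 times Cx3cr1 in the 6 date-like samples and 0.408 to 0.906 times in the numbered ones. Csf1r exceeded Cx3cr1 in every numbered sample (1.31 to 2.02 times) and in no date-like sample (0.819 to 0.946 times). In the numbered samples Csf1r (13 samples) or P2ry12 (3 samples) was the highest member instead of Cx3cr1. These are levels described after they were seen, without a test.

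**Figure D4:**
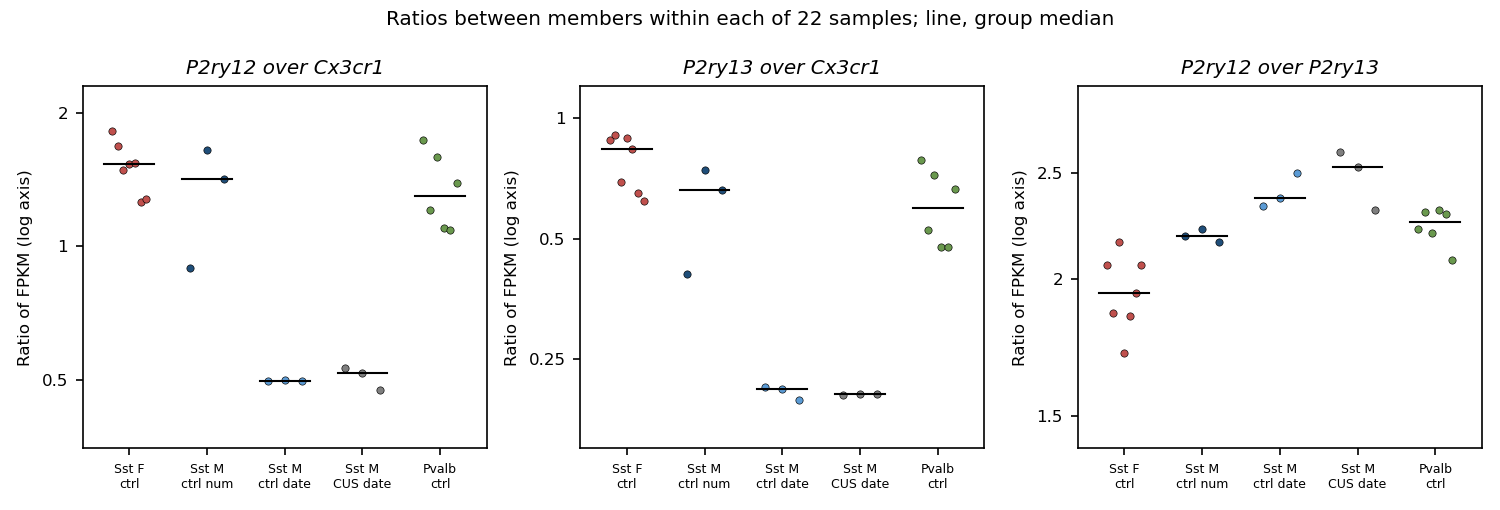
Ratio of the FPKM of 2 members within each of 22 samples (y axis, log scale; points) by group (x axis; F, female; M, male; ctrl, control; num and date, kind of title), with the group median as a line. In the first and second panels the 6 date-like samples, control and CUS, lie together below all 16 numbered ones. In the panel of P2ry12 over P2ry13 the date-like samples lie at 2.31 to 2.61 and the numbered ones at 1.71 to 2.31.

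Of the 45 pairs of members, 18 (40%) had ratios that did not overlap between date-like and numbered samples, as had 16.6% of all pairs among 9055 genes with a mean of at least 5 FPKM and no value of 0. Pairs share genes and members were not drawn at random, so these shares are set side by side without a test. P2ry13 was in 7 of those 18 and P2ry12 in 5, whereas Tmem119, Fcrls and Selplg were in 2 each. Within date-like titles the ratios were close in stressed and unstressed males, which is the other side of the narrow span of the CUS differences there. P2ry12 over P2ry13 kept to 1.71 to 2.61 in all 22 samples. It too lay higher in the date-like samples (2.31 to 2.61) than in the numbered ones (1.71 to 2.31), with ranges that met at 2.31.

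The members varied together over the samples to different degrees. Over the 22 samples and on the log2 scale, Pearson's r of the 45 pairs ran from 0.26 (Cx3cr1 with P2ry13) to 0.97 (P2ry12 with P2ry13), with a median of 0.74. Tmem119 with Fcrls (0.94), Cx3cr1 with Olfml3 (0.92) and Siglech with Olfml3 (0.92) were the next closest. The samples share groups, kinds of title and unknown depth, so these values describe the table. Among 9413 other genes with a mean of at least 5 FPKM, whose median r with the mean of the members was 0.04, the 10 most alike included Cmtm6 (0.963), Nckap1l (0.958), Abcc3 (0.949), Ifngr2 (0.945), Bank1 (0.944), Sirpa (0.944), Pik3r5 (0.938), Pros1 (0.932) and Plxdc2 (0.931). Sirpa, the receptor for the signal that restrains phagocytosis, was the most abundant of these at a mean of 290.9 FPKM, near Fcrls and Olfml3.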

How the data were processed

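The authors deposited 1 table of FPKM values per gene and library, made from rRNA-depleted RNA of cells sorted after papain digestion. The labels name TopHat2, Cufflinks, Cuffdiff and mm10, while the study's methods also name mm9, HISAT2 and StringTie; versions, strandedness and whether a batch correction reached these values are not given in the sources used here. Depth is unknown, so no counting error could be given. Differences were tested with limma 3.58.1 (R 4.3.3, eBayes with trend and robust) on log2(FPKM + 1), for genes with a mean above 0.4 FPKM, and p-values were adjusted by Benjamini-Hochberg across every gene in the fit (threshold 0.05). Such fold changes understate those of low genes. Near-identical libraries were averaged. Groups came from the labels of 30 samples, of which 6 were not analysed here. All 10 members were described; genes of other lists were named for passing the test, and ratios, the host genes and Xist after their values were seen. Members and lists were chosen with earlier results of these data known. The fitting code was tested on simulated data. Alternatives were other pseudocounts, filters, scalings, control groups, a replicate block and leaving out each sample. The 10 most alike genes were ranked by Pearson's r over 22 samples. Results for some genes of these lists and rankings are not reported here.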

Additional observations from a re-analysis of the deposited data

Results flagged for a closer look

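In groups of 6 or 7 samples, 10 of 33 sets of values had 1 sample far from the others by Dixon's test, run on FPKM for single members. The sets cover the same samples in members that vary together, so this count cannot be set against a chance rate. SST-F stood above the other females for Cx3cr1 (391.6 FPKM, next 268.8), P2ry12 (710.8, next 383.9), P2ry13 (344.8, next 178.1), Siglech (272.7, next 143.1), Gpr34 (209.7, next 103.5) and Olfml3 (260.5, next 193.1), and for the mean log2 level of the 10 members (8.30, next 7.76). The same library held the highest Sst of all samples, 49.3 FPKM. SS04031R stood above the other male controls for Cx3cr1 (1253.3 FPKM, next 676.0). The averaged PV0-M and PV2-M stood below the other Pvalb samples for Tmem119 (255.0 FPKM, next 420.6) and Selplg (151.3, next 404.6), and held the highest endothelial sum of that group, 308.3 FPKM. The part of these other cells in the values was not tested.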

How the results depend on the processing

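Of 810 values of single members recomputed under alternatives, 777 kept their sign and 33 turned, 18 calls were lost and 44 gained; the causes were not tested. Between the sexes, 2 members were called lower; the count was 0 with quantile normalization, 5 with near-identical libraries counted separately, 6 with all males, 5 with date-like males, where P2ry13 turned to 0.26, and 0 to 7 leaving out 1 sample. Between lines, 0 were called; the count was 10 with female Sst samples, 2 with numbered Sst samples of both sexes (chosen after seeing the data) and 0 to 2 leaving out 1 sample. With male Sst samples alone Cx3cr1 turned to 0.33, Csf1r 0.14, Siglech 0.17, Gpr34 0.35 and Olfml3 0.12, and with numbered males alone Cx3cr1 to 0.09, P2ry12 0.03, P2ry13 0.06, Csf1r 0.32, Siglech 0.21, Gpr34 0.17, Fcrls 0.06 and Olfml3 0.03. For CUS, 0 were called and 3 against numbered controls, and with controls of both sexes Cx3cr1 turned to 0.35, Gpr34 0.26, Selplg 0.08 and Olfml3 0.03. Between kinds of title Siglech turned to 0.08 with a common median and 0.15 with quantile normalization, and leaving out 1 sample it ran from -0.46 to 0.20 (0.08 and 0.06 among them), Fcrls from -0.69 to 0.08 and Olfml3 from -0.23 to 0.44. Over all genes, calls ranged over the alternatives from 11 to 6032 for sex (253 higher and 240 lower in the report's fit), 10 to 3638 for line (1133), 1 to 2309 for CUS (1) and 54 to 1962 for title (585). Scaling to a common median moved the median of all genes from 0.05 to 0.15 for sex and from 0.00 to 0.10 for title.

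Samples with the same replicate number did not deviate together (r of -0.02, -0.04 and -0.02 between the sexes, 0.03, 0.07 and -0.03 between the lines), so they share only a number. With the replicate block 0 members were called between the sexes, and between the lines Cx3cr1 turned to 0.09, P2ry12 0.09, P2ry13 0.14, Csf1r 0.35, Siglech 0.21, Gpr34 0.15, Fcrls 0.00 and Olfml3 0.06.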
